A study of Mus musculus with 12 samples.

Results

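RNA levels were described for 10 genes of the mineralised bone matrix: Ibsp, Spp1, Dmp1, Mepe, Bglap, Bglap2, Bglap3, Sparc, Ifitm5 and Pdpn. They were chosen by name, as genes known from mature osteoblasts and osteocytes, with earlier results of these data known. All 10 were matched to a gene of the table, which holds 25511 genes. RNA came from calvarial cells of newborn C57Bl/6J mice, labelled osteoblast-like, that were either wild type (WT) or F2rl1 -/- (KO). F2rl1 encodes protease-activated receptor 2, a cell surface receptor switched on by proteolytic cleavage. Cells of both genotypes were precultured for 48 h and then grown for 4 days in BRFF-HPC1 medium with 20% fetal calf serum. The medium was used either unconditioned or after 48 h on cultures of MDA-PCa-2b, which derives from a human prostate carcinoma. The series asks how the receptor bears on the response of bone-forming cells to factors that prostate cancer cells release. There are 12 samples in 4 groups of 3, but libraries 0 and 1 of the unconditioned WT group differed by less than counting noise and were counted as 1, which leaves 11 libraries. In addition, 1 sample titled as unconditioned WT carries the KO genotype label. It was kept in WT by its title, and which library of that group it is was not given in the sources used here. Every comparison that uses the unconditioned WT group therefore rests on a sample of disputed genotype. No source says that the samples of a group came from separate animals, so the p-values reflect only how far these samples spread, which may be technical.

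In bone, osteoblasts lay down a collagen scaffold and then load it with non-collagenous proteins that bind calcium, mineral or cell surface integrins. Bone sialoprotein (Ibsp), osteopontin (Spp1), dentin matrix protein 1 (Dmp1) and matrix extracellular phosphoglycoprotein (Mepe) are acidic integrin-binding phosphoproteins whose genes lie side by side. Osteocalcin is a small protein carrying gamma-carboxyglutamate (Gla) residues that is made late in osteoblast maturation, and mice hold 3 neighbouring copies of its gene, of which Bglap and Bglap2 are the bone forms. Osteonectin (Sparc) binds collagen and calcium, Ifitm5 encodes a membrane protein of mineralising osteoblasts, and podoplanin (Pdpn) is a membrane mucin that appears as osteoblasts turn into osteocytes and is also made by fibroblasts and lymphatic endothelium.

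The promoters of 4 members with very different RNA levels are shown: Spp1, which was among the most abundant RNAs, its scarce or undetected cluster neighbours Ibsp and Mepe, and Bglap, whose fragments were more frequent in conditioned medium. The 250 bases before each start site are given 5′ to 3′ from RefSeq (GRCm38.p6), with the letters ACCACA or TGTGGT, the core bound by RUNX factors read on either strand, in capitals.
Spp1: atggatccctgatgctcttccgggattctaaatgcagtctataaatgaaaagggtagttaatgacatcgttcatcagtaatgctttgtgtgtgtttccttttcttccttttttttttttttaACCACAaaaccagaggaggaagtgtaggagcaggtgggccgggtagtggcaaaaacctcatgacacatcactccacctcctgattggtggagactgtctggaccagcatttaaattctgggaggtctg
Ibsp: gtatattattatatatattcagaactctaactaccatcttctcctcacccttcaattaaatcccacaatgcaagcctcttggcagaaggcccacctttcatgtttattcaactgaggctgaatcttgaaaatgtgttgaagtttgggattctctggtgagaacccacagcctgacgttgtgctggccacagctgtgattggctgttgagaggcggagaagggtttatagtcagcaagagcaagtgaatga
Mepe: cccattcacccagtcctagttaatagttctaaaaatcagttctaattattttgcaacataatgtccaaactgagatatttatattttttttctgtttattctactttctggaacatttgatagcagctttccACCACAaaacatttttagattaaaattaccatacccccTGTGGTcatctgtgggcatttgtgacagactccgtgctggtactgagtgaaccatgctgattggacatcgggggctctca
Bglap: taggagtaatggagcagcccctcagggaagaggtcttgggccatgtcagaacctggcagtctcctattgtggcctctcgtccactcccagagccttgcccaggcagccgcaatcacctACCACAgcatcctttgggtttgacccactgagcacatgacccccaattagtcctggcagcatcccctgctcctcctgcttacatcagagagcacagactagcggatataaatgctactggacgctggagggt
The Spp1 window lies at chr5:104434861-104435110 on the plus strand, the Ibsp window at chr5:104299037-104299286 (plus), the Mepe window at chr5:104325079-104325328 (plus) and the Bglap window at chr3:88384467-88384716 (minus). Counting back from the start site, the letters began at -128 in Spp1, at -132 in Bglap, and at -118 and -80 in Mepe, and they were not in the Ibsp window. They were in 4 of the 13 promoter windows of members in the table, which cover 9 members (Bglap2 had no entry). The window with the letters that is not shown was one of Dmp1, at -164. Some of the 13 windows, such as those of Bglap3, do not lie at the start of the gene as counted here. Of all 32851 promoter windows of that length in the table, 14.0% held the letters. The letters were present both in the window of an abundant RNA and in that of Mepe, for which no fragment was counted. The 4 genes shown were picked by their RNA levels, and a link between the letters and those levels was not tested.

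Libraries held 15023994 to 16956754 fragments, the read pairs that the authors assigned to genes. As a check of the genotype labels, F2rl1 had 12 to 46 fragments per library and was not lower in the KO libraries. Mean F2rl1 levels per length were 0.513 ± 0.0451 FPKM (fragments per length and depth; SD, n = 2) in unconditioned WT, 0.858 ± 0.167 in unconditioned KO, 0.377 ± 0.132 in conditioned WT and 0.372 ± 0.221 in conditioned KO (n = 3 each). These gene totals cannot show whether a part of the gene was deleted. Some libraries stood apart from the others of their group. By chi-square over genes per degree of freedom, unconditioned KO library 0 was at 58.7 and 77.8 from the other KO libraries, which were at 6.27 from each other, and conditioned KO library 0 was at 85.5 and 134.7, against 13.2. Conditioned WT library 1 was at 37.7 and 64.4 from the other conditioned WT libraries, which were at 17.6 from each other. Leaving out this WT library changed no call of a single member gene by edgeR. Results of members are therefore also given without both KO libraries numbered 0, an alternative chosen after seeing the data, wherever that changes a call or moves a called value by over 1.5 times. Gapdh, known to be abundant in most cells and to have processed copies in the genome, was nearly absent, with 3 to 13 fragments against 14965 to 30544 for Actb.

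The 10 genes split into 3 with very high and 7 with very low fragment counts. Among the 7, Bglap, Bglap2 and Bglap3 are near-identical copies, and whether reads that match several copies are missing was not tested. Spp1, Sparc and Pdpn each had over 1000 fragments in every library, as did 2698 genes of the table. The other 7 never passed 50 fragments: Bglap2 reached 41, Ibsp 16, Bglap 13, Ifitm5 6, Dmp1 5 and Bglap3 1, and Mepe had none. For Mepe, 0 fragments per library allow a level of up to 0.177 to 0.20 CPM (fragments per library scaled to 1000000), by counting error only. Of the cells' defining markers, Runx2, the master transcription factor of osteoblasts, had 1195 to 1411 fragments, Sp7 32 to 604, Col1a1 100542 to 328342, Col1a2 78341 to 311962 and Alpl, the alkaline phosphatase of mineralising cells, 178 to 1568. The 12 listed osteocyte genes were uneven. Sost had no fragment, Dkk1 at most 1, Fgf23 1 to 14, Phex 2 to 30 and Npy 4 to 129. Ptprz1 had 38 to 85, Reln 46 to 240, Fam20c 62 to 305, Irx5 295 to 765 and Capg 794 to 3117 fragments. Dstn (4193 to 6524) and Cd44 (4449 to 10983), which are also made by many other cell types, were abundant. The early osteoblast markers were thus present, 7 of the 10 members were near the limit of counting, and the members and the osteocyte list alike held both abundant and scarce genes. These levels alone do not place the cells at a stage of maturation. Cartilage markers were counted as well. Their 8 genes summed to 1810 to 2908 CPM in unconditioned and 791.6 to 2322 CPM in conditioned libraries. Col2a1, with 11513 to 35209 fragments, made up most of that sum, while Matn1 had 0 to 182 and Matn3 4 to 60. The part of cartilage cells in the values of the members was not tested.

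**Figure D1:**
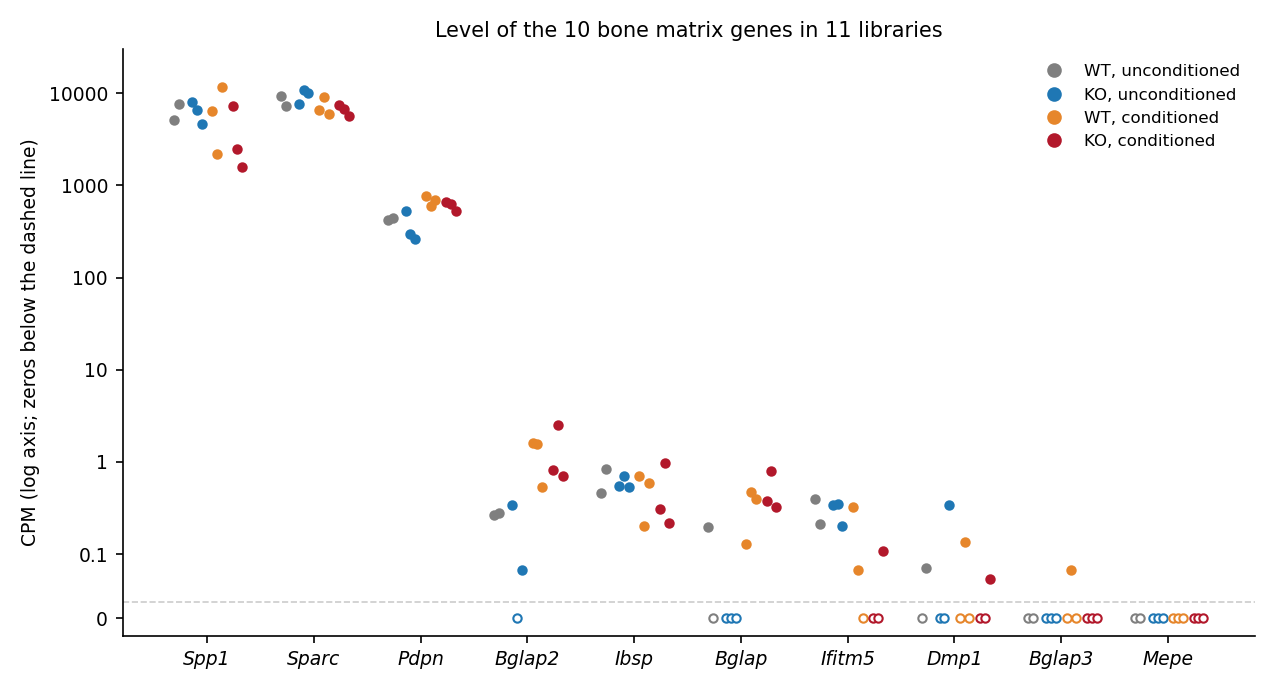
Level of each gene in CPM (fragments scaled to a library of 1000000, log axis) in the 11 libraries, with colours for the 4 groups and open symbols below the dashed line for libraries with 0 fragments. Spp1, Sparc and Pdpn lie between 258.9 and 11780 CPM, and no other member passes 2.495 CPM.

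Per length, Spp1 and Sparc were among the most abundant RNAs of these cells. Spp1 stood at rank 1 to 25 of all genes by FPKM across libraries, with a median of 3911 FPKM, and held 0.174% to 1.17% of all fragments. Sparc ranked 3 to 8 with a median of 2584 FPKM and held 0.598% to 0.961% of fragments. Pdpn followed at rank 147 to 554 and a median of 277 FPKM. Of the scarce members, Bglap2 had the highest median at 1.43 FPKM, then Bglap at 0.491, Ifitm5 at 0.314 and Ibsp at 0.263 FPKM. The order among these last genes does not hold beyond their spread, since the libraries ran from 0 to 2.09 FPKM for Bglap, 0 to 0.581 for Ifitm5 and 0.0995 to 0.478 for Ibsp. The FPKM medians of Dmp1, Bglap3 and Mepe were 0.

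The phosphoprotein genes show this split within a single stretch of chromosome 5. From Dspp, the dentin sialophosphoprotein gene, to Spp1 the cluster spans 270.3 kb (GRCm38, 104170712 to 104441053), and the table lists 5 genes in it. In order, Dspp had no fragment, Dmp1 (XLOC_016878, 104202617 to 104214102) had 0 to 5, Ibsp (XLOC_016879, 104299287 to 104311472) 3 to 16, Mepe (XLOC_016880, 104325329 to 104338611) none, and Spp1 (XLOC_016881, 104435111 to 104441053) 29518 to 177955. Spp1 starts 264.4 kb from the start of Dspp, and nearly all fragments of the cluster came from this last gene.

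**Figure D2:**
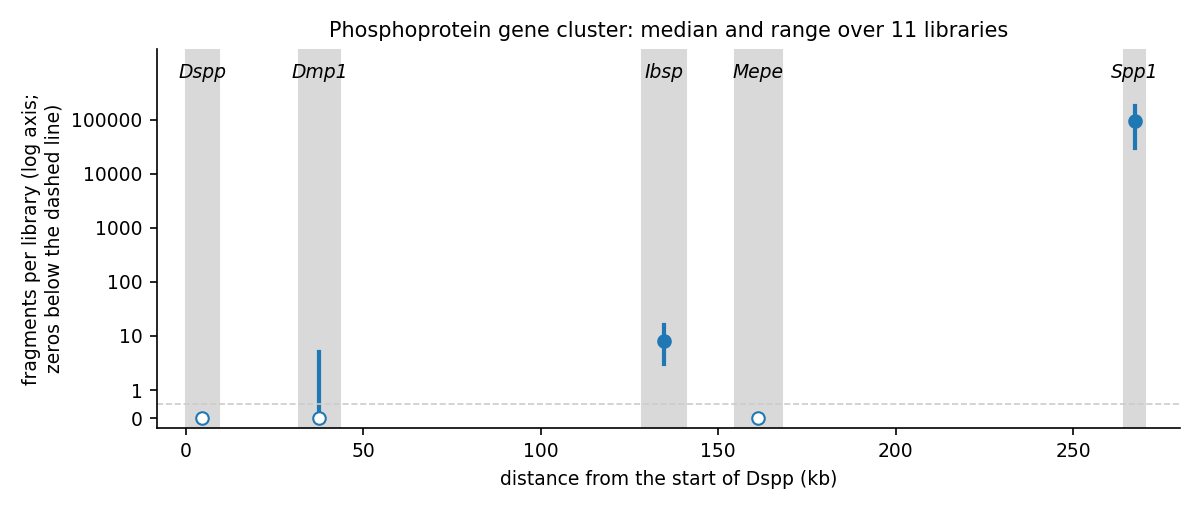
Fragments per library (log axis) of the 5 genes of the chromosome 5 cluster against distance from the start of Dspp in kb, with points for the median, lines for the range over 11 libraries and grey bands for the genes. Only Spp1, at 264.4 to 270.3 kb, has a median above 8 fragments.

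Osteopontin RNA varied more between libraries of a group than between groups. In unconditioned medium Spp1 was at 5179 and 7642 CPM in the WT libraries and at 8007, 6646 and 4675 CPM in the KO libraries. In conditioned medium it was at 6447, 2199 and 11780 CPM in WT libraries 0, 1 and 2, and at 7242, 2488 and 1591 CPM in the KO libraries. WT library 1 and KO libraries 1 and 2 thus lay below every unconditioned library, WT library 2 lay above all of them, and the groups overlapped. The highest conditioned WT library had 5.55 times the share of fragments of the lowest, and the highest conditioned KO library 4.04 times, against medians of 1.17 and 1.30 times over the 2625 named genes with over 1000 fragments in every library. By its SD within groups, 0.91 on the log2 scale, Spp1 was more variable than 99.7% of these genes, whose median SD was 0.18. The test called no change in Spp1. The log2 difference between media was 0.09 in WT (SE 0.71, adjusted p = 0.974, edgeR quasi-likelihood test with Benjamini-Hochberg adjustment over 13603 genes) and -0.77 in KO (SE 0.64, adjusted p = 0.406). The 95% interval in KO, -2.20 to 0.66, spans both a large decrease and an increase. Without conditioned KO library 0 that difference was -1.66 (adjusted p = 0.0543), and without KO library 2 it was -0.40 (adjusted p = 0.739).

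The genes whose level followed Spp1 most closely over the 11 libraries, by Pearson's r of log2 CPM, were Klk8 (0.985), Fosl1 (0.976), Glrx (0.969), Gpr35 (0.966) and A330021E22Rik (0.965). Klk8 encodes a secreted serine protease, Fosl1 a subunit of the AP-1 transcription factor, Glrx a glutaredoxin and Gpr35 a receptor coupled to G proteins. Fosl1 had 1682, 600 and 2098 fragments in the conditioned WT libraries and 1776, 657 and 640 in the conditioned KO libraries. The same 3 conditioned libraries that were low for Spp1 were low for Fosl1. For the scarce Ibsp the closest genes were Rbmx (0.782), Rfx5 (0.761), B4galt5 (0.738), Abcg4 (0.729) and 1700052N19Rik (0.722), and with 3 to 16 fragments per library these values say little. All of these correlations share the same 11 libraries with their depth and scaling, and they are given as a description.

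Spp1 RNA came almost wholly from 1 start site. Its 1420-base transcript took 94.8% to 96.0% of the gene's fragments and the 1472-base form 3.78% to 4.94%. The 1517-base transcript from the second start site took 0.188% to 0.606%. These shares are Cuffdiff's estimates, and 309 exon bases of Spp1 are shared with an unconfirmed gene model on the same strand. Sparc was likewise steady in form, with 80.1% to 81.9% of its fragments on a 2641-base transcript, as was Pdpn, with 94.7% to 97.2% on the 1839-base one.

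Osteopontin is also made by macrophages and osteoclasts, and fragments of genes listed as markers of each were counted. The 15 macrophage markers in the table summed to 58.8 to 108 CPM in unconditioned and 53.5 to 158 CPM in conditioned libraries, and all 15 had a fragment somewhere. In conditioned WT libraries 0, 1 and 2 the sum was 125.9, 119.8 and 158 CPM, and in the KO libraries 139.6, 95.97 and 53.5 CPM. Lyz2 was its largest part, at 48.2 and 44.3 CPM in unconditioned and 86.7 and 62.9 CPM in conditioned WT and KO. Averaged over genotypes, 7 of the 14 macrophage markers tested had a positive log2 change between media. Of these 14, 1 was called, as higher (7.14%, against 20.5% of all genes). The 12 osteoclast markers summed to 168.5 to 225.1 CPM in unconditioned and 304.4 to 469.5 CPM in conditioned libraries. Ctsk, a collagen-cleaving cathepsin, made up most of that sum, while Calcr had at most 3 fragments and Dcstamp, needed for osteoclast fusion, had none. Acp5 had 15 to 39 fragments, Oscar 3 to 9, Ocstamp at most 5, Mmp9 1 to 73 and Nfatc1 536 to 948. Atp6v0d2 was at 0.746 and 1.37 CPM in unconditioned and 4.94 and 4.48 CPM in conditioned WT and KO. Averaged over genotypes, 5 of the 7 osteoclast markers tested had a positive log2 change. Of these 7, 2 were called, both as higher (28.6%, against 20.5% of all genes). In WT alone 2 were called higher as well (28.6%, against 1.78%), and in KO alone 2 (28.6%, against 18.3%). Whether osteoclasts were present was not tested. The part of these cells in the Spp1 values was not tested. In such bulk RNA, fewer cells of a type and less RNA per cell cannot be told apart.

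Bone sialoprotein RNA was low in all groups. Ibsp had 7 and 12 fragments in the unconditioned WT libraries, 8, 10 and 8 in KO, 11, 3 and 9 in conditioned WT and 5, 16 and 4 in conditioned KO. Means were 0.650 ± 0.268 CPM (SD, n = 2), 0.595 ± 0.0954, 0.502 ± 0.265 and 0.50 ± 0.413 CPM (n = 3 each), and all 4 groups overlapped. The log2 difference between media, averaged over genotypes, was -0.31 with a 95% interval of -1.35 to 0.74 (adjusted p = 0.67, edgeR). A decrease or an increase within that interval remains possible. The interval includes the spread between libraries as well as counting error. Dmp1, a regulator of phosphate and mineral in osteocytes, had a fragment in 4 of 11 libraries, with 5 in unconditioned KO library 2, 2 in conditioned WT library 1 and 1 each in unconditioned WT library 2 and conditioned KO library 2.

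Osteocalcin fragments were few but rose in conditioned medium. Bglap2 (XLOC_014563, chromosome 3, 88377736 to 88378699) had 4 and 4 fragments in the unconditioned WT libraries and 5, 0 and 1 in KO, against 25, 23 and 8 in conditioned WT and 13, 41 and 13 in conditioned KO. Every conditioned library lay above every unconditioned one, as did 7.98% of all genes tested. Bglap (XLOC_014564, chromosome 3, 88383495 to 88384466) had 3 and 0 fragments in unconditioned WT and none in the 3 unconditioned KO libraries, against 2, 7 and 6 in conditioned WT and 6, 13 and 6 in conditioned KO. The media did not overlap for Bglap in KO, where 15.8% of all genes tested were higher without overlap, and they overlapped in WT. Bglap3 (XLOC_014562, chromosome 3, 88368617 to 88369720) had a single fragment, in conditioned WT library 1.

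Averaged over genotypes, Bglap2 rose by 2.68 on the log2 scale (SE 0.66, 95% interval 1.22 to 4.14, adjusted p = 0.0186, edgeR). In this comparison 20.5% of all 13603 genes were called and 10.4% were higher. Of the 5 members that passed the filter on low counts, Bglap2 and Pdpn were called, both higher. Bglap2 had at most 5 fragments in any unconditioned library, so it passed that filter only through conditioned libraries, where it was high. The number of members called is thus not independent of that rise and is given as a description. In KO alone, where 18.3% of genes were called, Bglap2 rose by 3.21 (SE 0.90, adjusted p = 0.0367). In WT alone, where 1.78% were called, its difference was 2.15 (SE 0.95, adjusted p = 0.32). Summed over libraries, Bglap2 had 67 against 6 fragments in KO, a ratio of 10.9 per depth (95% interval from counting alone 4.77 to 30.9), and 56 against 8 in WT, a ratio of 4.76 (2.26 to 11.6). The averaged call was lost without unconditioned WT library 0 (adjusted p = 0.0841) or 2 (0.08), where the remaining library of that group is assumed to vary like the other groups. The KO call was lost without 7 of the 11 libraries (unconditioned WT 0 and 2, unconditioned KO 1 and 2, conditioned WT 0, conditioned KO 1 and 2; adjusted p = 0.0548 to 0.144). Without both KO libraries numbered 0 it was 5.23 (SE 1.18, adjusted p = 0.00633), set against 0 and 1 unconditioned fragments.

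Bglap was too scarce for that filter. It had 25 fragments in conditioned KO against none in unconditioned KO, and the 95% lower bound of the ratio per depth, from counting alone, was 6.17. With 3 fragments over the unconditioned group set as a floor, the ratio was 8.17. In WT 15 against 3 fragments gave a ratio of 3.4 (counting interval 0.962 to 18.3). An exact two-sided permutation test over libraries, within genotypes, gave p = 0.015 for Bglap, with means of 0.0493 CPM in unconditioned and 0.414 CPM in conditioned medium, where 200 arrangements allow no p below 0.005. This is 1 of 4 such tests, on Bglap, Ifitm5, Dmp1 and Bglap3, and the p-values are not adjusted. In a fit without the filter, Bglap was called in KO (adjusted p = 0.0287) and averaged over genotypes (adjusted p = 0.0238).

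The copies could not be cleanly told apart. Over 439 aligned bases, the Bglap and Bglap2 transcripts of GENCODE M21 were 98.9% identical, and 74.7% of the 50-base words of Bglap were also in Bglap2. Bglap3 was 96.4% identical to Bglap and 97.7% to Bglap2 over the aligned bases. How the authors' counting treated reads that match several copies is not given in the sources used here, so the division between the copies is uncertain and whether such reads are missing was not tested. Gapdh, which also has near-identical copies in the genome, had the few fragments given above. With all 3 genes summed, an alternative chosen after seeing the data, osteocalcin had 7 and 4 fragments in unconditioned WT, 5, 0 and 1 in unconditioned KO, 27, 31 and 14 in conditioned WT and 19, 54 and 19 in conditioned KO. All 6 conditioned libraries lay above the 5 unconditioned ones, as for 7.98% of all genes tested. The sum includes Bglap2, which already did so by itself. The sum had at most 7 fragments in any unconditioned library. Like Bglap2, it passed the filter on low counts only through conditioned libraries, where it was high. Its calls are thus not independent of that rise and are given as a description. The sum rose by 2.87 on the log2 scale averaged over genotypes (SE 0.60, adjusted p = 0.00991, edgeR) and by 3.67 in KO (SE 0.84, adjusted p = 0.0198), with 2.07 in WT (SE 0.85, adjusted p = 0.276). The averaged call was lost without unconditioned WT library 2 (adjusted p = 0.0578), and the KO call without unconditioned KO library 1 or 2 or conditioned KO library 1 (0.0728 to 0.0831). Even after the rise, the summed level was 1.59 ± 0.598 CPM in conditioned WT and 1.83 ± 1.26 CPM in conditioned KO (SD, n = 3 each).

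The authors' deposited table of tests on start-site groups, in which the twice-listed WT library counts as 2 replicates, marks Bglap2 as significant between media in both genotypes (q = 0.0437 in KO and 0.0250 in WT). It also marks Pdpn in both (q = 0.00514 in KO and 0.0143 in WT) and Bglap in KO (q = 0.00110). In the same authors' deposited table, Spp1 in KO had q = 0.233 and Sparc in KO q = 0.502.

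**Figure D3:**
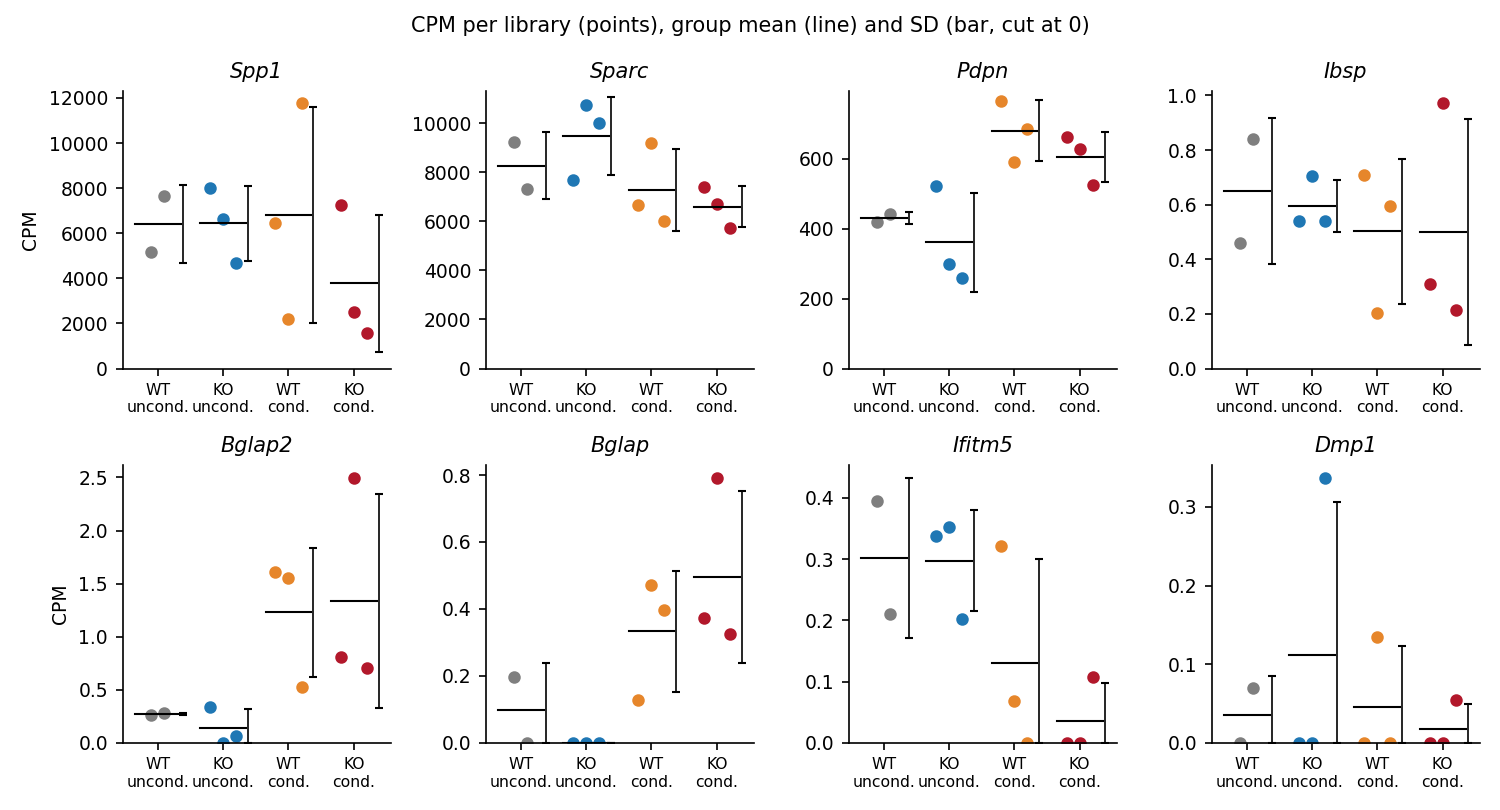
CPM of 8 members in each library (points, linear axes from 0), with the group mean (line) and SD (bar) for the 4 groups. Bglap2 and Pdpn are higher in all conditioned libraries than in all unconditioned ones, as are 7.98% of all genes tested. Spp1 spreads from 1591 to 11780 CPM within conditioned medium.

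Podoplanin RNA was higher in conditioned medium. Pdpn (XLOC_016317, chromosome 4, 143267409 to 143299564) was at 418.6 and 442.1 CPM in unconditioned WT and at 523.4, 300.2 and 258.9 CPM in unconditioned KO, against 765.7, 591.8 and 686.8 CPM in conditioned WT and 663.9, 628.4 and 525 CPM in conditioned KO. The media did not overlap in either genotype (21.8% of all genes tested were higher without overlap in WT and 15.8% in KO), but unconditioned KO library 0 came close to the lowest conditioned library. Averaged over genotypes Pdpn rose by 0.71 on the log2 scale (SE 0.18, 95% interval 0.30 to 1.11, adjusted p = 0.0241, edgeR), a fold of 1.63. The difference was 0.66 in WT (SE 0.27, adjusted p = 0.282) and 0.75 in KO (SE 0.24, adjusted p = 0.0571). The averaged call was lost without any of 5 libraries (unconditioned WT 0 or 2, unconditioned KO 1, conditioned WT 0, conditioned KO 1; adjusted p = 0.0575 to 0.0995). In KO it was reached without unconditioned KO library 0, at 1.12 (adjusted p = 0.00428). Without both KO libraries numbered 0, Pdpn was called higher in WT, at 0.66 (adjusted p = 0.0205), and in KO, at 1.05 (adjusted p = 0.000737).

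Podoplanin also marks lymphatic endothelium and keratinocytes. The 8 endothelial and lymphatic markers summed to 15.5 to 26.6 CPM in unconditioned and 19.2 to 27.3 CPM in conditioned libraries, and all 8 had a fragment in some library. The most abundant was Flt4, a receptor of lymphatic endothelium, with 48 to 291 fragments, at 14.7 and 13.7 CPM in unconditioned WT and KO and at 11.7 and 6.54 CPM in conditioned WT and KO, and it was not called (-0.70 on the log2 scale, adjusted p = 0.243). Of the other lymphatic genes, Prox1 had 6 to 23 fragments and Lyve1 0 to 12. Kdr and Tek, receptors of endothelial cells, rose with the medium by 1.89 (adjusted p = 0.0259) and 0.86 (adjusted p = 0.0462) on the log2 scale. The 8 keratinocyte markers summed to 21.2 to 57.9 CPM in unconditioned and 30.6 to 72.3 CPM in conditioned libraries, and most of that sum was Perp, at 27.9 and 23.1 CPM in unconditioned and 49.8 and 34.2 CPM in conditioned WT and KO, which was not called (adjusted p = 0.193). Of the 6 keratinocyte markers tested, 4 had a negative log2 change (Krt5, Krt14, Trp63 and Dsp), with a median of -0.87, and Trp63 fell, by 1.30 (adjusted p = 0.0262). Their part in the Pdpn difference was not tested. Each of these sums lay below the 258.9 CPM of the lowest Pdpn library, but a sum of markers sets no bound on the Pdpn RNA of such cells.

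Osteonectin RNA was high in all groups and passed no test by edgeR over all libraries. Sparc (XLOC_003723, chromosome 11, 55394159 to 55420080) was at 9233 and 7310 CPM in unconditioned WT, 7688, 10720 and 10000 CPM in unconditioned KO, 6643, 9182 and 5995 CPM in conditioned WT and 7395, 6693 and 5709 CPM in conditioned KO. The media overlapped in WT, while in KO each conditioned library lay below each unconditioned one, as did 15.4% of all genes tested. The log2 difference in KO was -0.52 (SE 0.24, 95% interval -1.05 to 0.01, adjusted p = 0.139) and -0.35 averaged over genotypes (SE 0.18, adjusted p = 0.177), and neither was called by edgeR. DESeq2 called the KO difference, at -0.53 (adjusted p = 0.0438). Without both KO libraries numbered 0, edgeR called Sparc lower in KO, at -0.74 (adjusted p = 0.0264), and averaged over genotypes, at -0.47 (adjusted p = 0.0351). Across the 11 libraries, Pearson's r of log2 CPM was -0.74 between Sparc and Pdpn and 0.86 between Bglap2 and Pdpn, a description that includes the difference between media.

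Ifitm5, whose membrane protein is largely restricted to mineralising osteoblasts, had 6 and 3 fragments in unconditioned WT and 5, 5 and 3 in unconditioned KO, against 5, 1 and 0 in conditioned WT and 0, 0 and 2 in conditioned KO. The media did not overlap in KO, where 15.4% of all genes tested were lower without overlap, and they overlapped in WT. Mean levels were 0.30 CPM in unconditioned and 0.0829 CPM in conditioned medium (exact two-sided permutation test within genotypes, p = 0.025, 1 of the 4 tests and not adjusted). The ratio of conditioned to unconditioned fragments per depth was 0.151 in KO (2 against 13 fragments, counting interval 0.0165 to 0.666) and 0.454 in WT (6 against 9, 0.133 to 1.43). In a fit without the filter on low counts the averaged difference was not called (adjusted p = 0.121), and 227 exon bases are shared with another annotated gene on the same strand. The corresponding permutation p was 0.71 for Dmp1 and 1 for Bglap3.

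**Figure D4:**
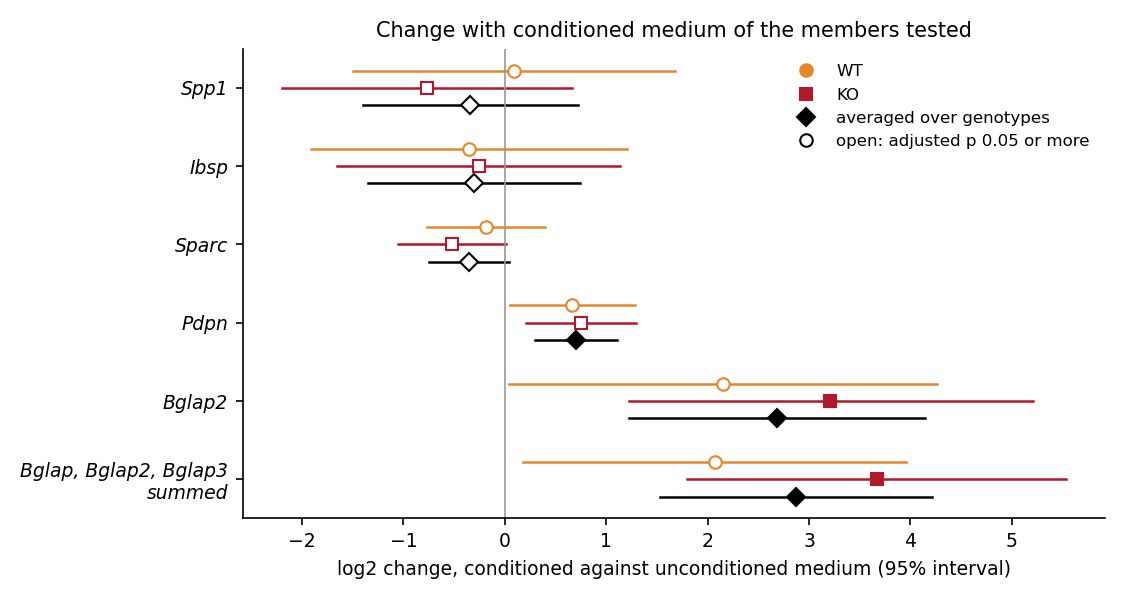
Log2 change with conditioned medium and its 95% interval for the 5 members tested and the osteocalcin sum, in WT, in KO and averaged over genotypes, with filled symbols for adjusted p under 0.05. Bglap2, the osteocalcin sum and Pdpn lie above 0 in all 3 estimates, while the intervals of Spp1, Ibsp and Sparc cross 0.

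No member was called between genotypes. In unconditioned medium 0.00735% of all genes were called between KO and WT, in conditioned medium 0% by edgeR, with 1897 genes at an unadjusted p under 0.05 and 2 called by DESeq2. None of the 5 members tested was called by edgeR or DESeq2 in either medium, and none had an unadjusted p under 0.05. The count over all genes depends on library 0 of the KO groups: without conditioned KO library 0, 4507 genes were called between genotypes in conditioned medium, and without both KO libraries numbered 0, 5765 in conditioned and 659 in unconditioned medium. No member was among the genes called without both, with Spp1 at -1.73 in conditioned medium (SE 0.66, adjusted p = 0.0723) and Pdpn at -0.62 in unconditioned medium (SE 0.15, adjusted p = 0.0514) closest to the threshold. With conditioned medium, KO differed from WT on the log2 scale by -0.85 for Spp1 (95% interval -2.28 to 0.58), -0.14 for Sparc (-0.67 to 0.39), -0.17 for Pdpn (-0.71 to 0.37), -0.02 for Ibsp (-1.43 to 1.38) and 0.11 for Bglap2 (-1.44 to 1.67). The intervals are narrow for Sparc and Pdpn and wide for the others. In unconditioned medium Bglap2 was at -0.95 (95% interval -3.49 to 1.59) and the osteocalcin sum at -1.39 (adjusted p = 0.998). In the fit without the filter on low counts, Bglap was at -3.75 there and Dmp1 at 1.53, both with an adjusted p of 1. The interaction, the medium effect in KO minus that in WT, was -0.86 for Spp1 (-3.01 to 1.29), -0.34 for Sparc (-1.13 to 0.46), 0.08 for Pdpn (-0.72 to 0.89) and 1.06 for Bglap2 (-1.90 to 4.03). No gene was called for it (0% by edgeR, 412 at an unadjusted p under 0.05, 0 by DESeq2). Without both KO libraries numbered 0, 2605 genes were called for the interaction and no member, Bglap2 being at 3.09 (SE 1.64, adjusted p = 0.217), so the larger Bglap2 rise in KO than in WT is not shown to be a difference between genotypes.

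Genes that surround these proteins were listed for the same comparison, conditioned against unconditioned medium averaged over genotypes, where the median of all genes was 0.02 on the log2 scale, 20.5% of all genes were called and 10.4% were higher. With 7 to 24 genes tested per list, the shares below are a description. Of 24 tested genes of the osteoblast lineage and of mineral deposition, 2 rose and 5 fell (29.2% called), with a median of -0.03. Alpl, the phosphatase that frees phosphate for mineral, fell by 1.43 (SE 0.34, adjusted p = 0.0177), and Enpp1, which makes the mineral inhibitor pyrophosphate, fell by 1.41 (adjusted p = 0.00457). Tmem119, a membrane protein of differentiating osteoblasts, fell by 1.65, the parathyroid hormone receptor Pth1r fell by 0.78 and Smpd3 fell by 1.09. Phospho1, the phosphatase of matrix vesicles, rose by 0.69 (adjusted p = 0.0491) and Bmp2 by 1.23 (adjusted p = 0.0156). Of 9 tested osteocyte genes 33.3% were called: Fam20c and Irx5 rose, by 1.15 and 0.58, and Npy fell by 2.45.

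Fam20c, the Golgi kinase that phosphorylates osteopontin and the other matrix phosphoproteins, was called in each genotype, at 1.34 in WT (adjusted p = 0.0463) and 0.96 in KO (adjusted p = 0.0268). Among 19 tested genes that process matrix proteins, 2 rose and 4 fell (31.6% called, against 20.5% of all genes), with a median of -0.04. Mmp14, a membrane metalloprotease, rose by 0.93 along with Fam20c, while Bmp1, the procollagen C-proteinase that also cleaves Dmp1, fell by 0.82. Tll1 fell by 0.53, Furin by 0.53 and Tgm1 by 2.83. Of 9 tested genes of the vitamin K cycle and other Gla proteins, 3 fell and none rose (33.3% called, against 20.5% of all genes), with a median of -0.29. Vkorc1, the reductase that renews vitamin K for the carboxylation of osteocalcin, fell by 0.82 (SE 0.14, adjusted p = 0.00429), Vkorc1l1 by 0.28 and Pros1 by 0.65. The osteocalcin sum, formed after seeing the data, and Vkorc1 were thus called in opposite directions, which is given as a description.

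Of 12 tested surface receptors of these proteins, 2 fell and none rose, with a median of -0.39. The share called, 16.7%, was no higher than the 20.5% of all genes. Itga5 fell by 1.26 (SE 0.21, adjusted p = 0.00337) and its partner Itgb1 by 0.48 (adjusted p = 0.0181), and together they form the fibronectin receptor that also binds osteopontin. Cd44, another osteopontin receptor, was at 586 and 537 CPM in unconditioned WT and KO and at 532 and 370 CPM in conditioned WT and KO and was not called. Clec1b, the platelet receptor of podoplanin, had at most 1 fragment. Of 7 tested relatives of Sparc and of the phosphoproteins, Smoc2 fell, by 0.79 (adjusted p = 0.0369), with a median of -0.76 over the list, and the share called, 14.3%, was below the 20.5% of all genes.

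**Figure D5:**
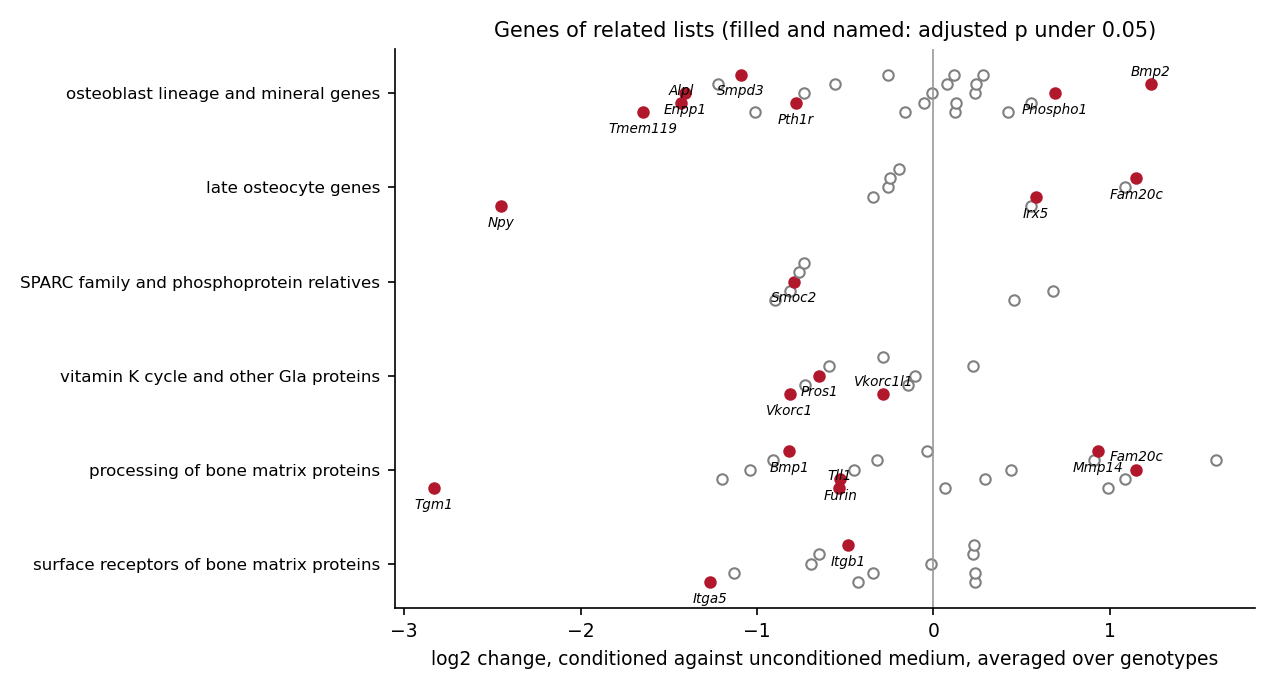
Log2 change with conditioned medium, averaged over genotypes, of the tested genes in 6 related lists, with filled and named points for adjusted p under 0.05. Calls fall on both sides of 0 for the lineage, osteocyte and processing lists, and below 0 for the other 3 lists.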

How the data were processed

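Fragments per gene and library come from the authors' deposited Cuffdiff table. Per the file headers they are estimated counts, of which 94.3% were whole, and they were rounded. The FPKM values there, per the file headers, are divided by gene length and depth, as the authors scaled them. Log2 ratios, p-values and q-values of start-site groups are the authors' deposited tests. Other deposited columns, such as transcript length in bases and locus, are described per the file headers. The submitters' processing notes list GRCm38 (mm10), TopHat2 2.0.9, CASAVA 1.8.2, Cufflinks 2.1.1 and Cuffdiff 2.1.1. TruSeq libraries, made per the labels' protocols from RNA with an integrity number over 7.5, do not mark the strand.

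Condition names in the table gave each library its group. Starts were moved 1 base later, since 10779 gene starts equalled the RefSeq start minus 1 and 650 equalled it. Genes without a symbol (1714, with 2.69% to 3.10% of fragments) were left out. Unconditioned WT libraries 0 and 1 (91.8% of 17538 genes equal, chi-square 760.5 on 15476 degrees of freedom) were averaged. Counts were fitted with edgeR 4.0.16 in R 4.3.3 (TMM, filterByExpr, robust quasi-likelihood, 4 groups, 13603 genes, 7 residual degrees of freedom), tested on simulated data. CPM carry TMM scaling. SE is the log2 change over the square root of F. Calls are adjusted p under 0.05. Intervals are 95%. Alternatives used DESeq2 1.42.0 and limma 3.58.1 on log2(FPKM + 1) and log2(FPKM + 0.1). Sequences were handled with Biopython.

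The members and lists were chosen with earlier results of these data known. Named from a list were at most 6 genes per comparison, those called first and then those with most fragments, and the 5 genes most like Spp1 and Ibsp. The osteocyte genes by level, Cd44, Clec1b and the marker genes were named after their values were seen.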

Additional observations from a re-analysis of the deposited data

How the results depend on the processing

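Of the log2 differences of members, 615 kept their direction and side of the threshold under an alternative, 19 were no longer past it, 10 came past it and 33 turned, all 33 for differences that were not called. Leaving out both KO libraries numbered 0 and summing osteocalcin were chosen after seeing the data, and the cause of each shift below was not tested.

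Genes called between KO and WT in unconditioned medium numbered 0 with only the groups compared and 0 with limma on either FPKM scale, and 659 without both KO libraries numbered 0. Between KO and WT in conditioned medium DESeq2 called 2 and the set without both KO libraries numbered 0 called 5765. For the medium in WT the counts were 897 with DESeq2, 923 with 12 libraries and 1589 without both KO libraries numbered 0. For the medium in KO they were 534 with only the groups compared and 6822 without both, for the averaged medium effect 6590 and for the interaction 2605 without both. Leaving out 1 library at a time gave 0 to 2 calls (KO against WT, unconditioned), 0 to 4507 (conditioned), 0 to 916 (medium in WT), 319 to 6094 (medium in KO), 1215 to 5652 (averaged) and 0 to 1419 (interaction).

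Spp1 turned in KO against WT in unconditioned medium to -0.0020 with only the groups compared, -0.0374 on either FPKM scale, -0.1785 without both KO libraries numbered 0 and -0.24 to 0.32 without 1 library. Spp1 in WT between media turned to -0.2296 (FPKM + 1) and -0.2297 (FPKM + 0.1), with -0.57 to 0.51 without 1 library. Ibsp turned with 12 libraries to 0.0281 (KO against WT, unconditioned) and -0.0400 (interaction), and to 0.2201 (KO against WT, conditioned) without both KO libraries numbered 0. Without 1 library, Ibsp ran from -0.49 to 0.37 and -0.92 to 0.35 (KO against WT, unconditioned and conditioned), -0.73 to 0.13 and -1.16 to 0.12 (medium in WT and KO) and -0.80 to 0.48 (interaction). Between KO and WT in conditioned medium, Bglap2 ran from -0.70 to 0.43, the osteocalcin sum from -0.52 to 0.50 and Sparc from -0.26 to 0.0624, and the Pdpn interaction from -0.11 to 0.45.

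Without both KO libraries numbered 0, Pdpn was called in WT (0.66, adjusted p = 0.0205) and KO (1.05, adjusted p = 0.000737), and Sparc in KO (-0.74, adjusted p = 0.0264) and averaged (-0.47, adjusted p = 0.0351). Pdpn in KO was called with DESeq2 (adjusted p = 0.0209), 12 libraries (0.0366) and limma (0.0329 and 0.0337). Bglap2 in KO was not called with only the groups compared (adjusted p = 0.106). No paired analysis was possible because the table numbers libraries from 0 and no source ties those numbers to the replicate numbers of the sample titles. Depth limits Ibsp, Dmp1, Mepe, Ifitm5 and the osteocalcin genes. Floors and the intervals given as counting intervals cover counting error only, while the edgeR intervals also include the spread between libraries.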
